A study of Caenorhabditis elegans with 2 samples.

Results

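The peaks described here are the X-chromosome peaks of MES-2 that lie away from tRNA genes in whole Caenorhabditis elegans. They were chosen by position alone, as the peaks of the authors' thresholded ce11 list on X whose summit lies more than 500 bp from every annotated tRNA gene. The rule kept 789 of the 931 X peaks, among 5501 peaks in the list, and left out 142 X peaks at tRNA genes. X carries 276 tRNA genes and the 5 autosomes 336 in all. The autosomal peaks chosen in the same way, 4384 of them, served for comparison. At the limit of the rule, the nearest member lay 585 bp from a tRNA gene, near the histone H1 gene hil-3, with a signal (the height the authors gave each peak) of 175.6. The next members out lay 598 bp and 695 bp away, with signals of 75.02 and 175.65. The nearest peaks left out lay 490, 462 and 460 bp away, with signals of 152.6, 150.01 and 137.2.

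The material was strain OP248, a transgenic line that stably carries MES-2 fused at its C-terminus to GFP and FLAG, collected as L4 larvae of the hermaphrodite sex. Chromatin was sheared by sonication and precipitated with an antibody against GFP, per the sample descriptions; the antibody field of the labels names MES-2. The 2 samples are biological replicates 1 and 2 of this 1 group, and neither the age of the worms nor the promoter that drives the fusion is given in the labels. No input, untagged strain or other tagged protein was analysed here, so binding of MES-2 and signal unrelated to MES-2 cannot be told apart. Whole worms mix somatic and germ cells, and fewer cells with a peak and less protein per cell cannot be told apart. Without read counts in the lists, the depth behind each peak is unknown.

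Polycomb repressive complex 2 places methyl groups on lysine 27 of histone H3. Its catalytic subunit in worms is MES-2, an Enhancer of zeste homologue that works with MES-3 and MES-6. Its loss makes the offspring of mutant mothers sterile, and the complex is known for keeping X-linked genes silent in the germ line, where few X-linked genes are active. In the soma of hermaphrodites, which carry a pair of X chromosomes, a condensin-like dosage compensation complex lowers X expression. It loads at recruitment sites spread along X that share a motif with the core GCGCAGGG, and the gene sdc-2 is needed for that loading.

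The strongest X peaks did not lie at promoters. Taking a promoter peak as one with its summit at most 500 bp from the start of a protein-coding transcript, all 11 X peaks of highest signal lay elsewhere, 9 between genes and 2 in introns. The 12th, upstream of adm-4, was the highest promoter peak of X at this limit. With a limit of 1000 bp, the second peak, 741 bp upstream of nspc-17, would count as a promoter peak. Of those 11 summits, 7 had the recruitment core GCGCAGGG, read on either strand, within 100 bp. Each of the other 4 had a copy with 1 differing letter, a search that was added after the values were seen. The limit of 11 was likewise set after seeing where the first promoter peak fell. The sequences below surround those copies, from the RefSeq genome on WBcel235 (ce11), and are printed 5′ to 3′ on the strand named, with the 8 letters of the copy in capitals. They are shown because they hold a copy near each of the 11 strongest X summits, and are named by the nearest protein-coding start. Each stretch is centred on its copy, which lay up to 71.5 bp from the summit (F22H10.2), so not every stretch holds the summit.
F20B6.9 (chrX:4209240-4209299, minus strand, exact): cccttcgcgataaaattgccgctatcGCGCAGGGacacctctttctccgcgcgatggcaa
nspc-17 (chrX:14525874-14525933, minus strand, exact): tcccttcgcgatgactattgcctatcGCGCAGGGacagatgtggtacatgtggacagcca
F55G7.5 (chrX:11937515-11937574, plus strand, 1 mismatch): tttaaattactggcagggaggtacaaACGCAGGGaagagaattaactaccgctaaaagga
F22H10.2 (chrX:16682146-16682205, minus strand, exact): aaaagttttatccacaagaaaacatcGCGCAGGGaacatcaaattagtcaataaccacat
K02D3.1 (chrX:13700878-13700937, minus strand, 1 mismatch): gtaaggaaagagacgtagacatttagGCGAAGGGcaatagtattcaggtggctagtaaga
cest-16, in an intron of mom-1 (chrX:6296522-6296581, plus strand, exact): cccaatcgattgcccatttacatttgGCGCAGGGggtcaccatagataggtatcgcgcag
gtr-1 (chrX:806648-806707, plus strand, exact): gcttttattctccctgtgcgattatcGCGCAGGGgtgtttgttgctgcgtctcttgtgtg
W02H3.3 (chrX:11094200-11094259, minus strand, exact): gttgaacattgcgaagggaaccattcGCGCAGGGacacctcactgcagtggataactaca
ZK899.6 (chrX:9465857-9465916, plus strand, 1 mismatch): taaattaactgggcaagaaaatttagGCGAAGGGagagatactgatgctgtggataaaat
fbxb-58 (chrX:1627080-1627139, plus strand, 1 mismatch): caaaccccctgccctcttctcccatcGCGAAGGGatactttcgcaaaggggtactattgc
Y41G9A.17, in an intron of it (chrX:2997097-2997156, minus strand, exact): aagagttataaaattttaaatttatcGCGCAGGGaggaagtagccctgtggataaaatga

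The letters just beside the exact copies were also partly shared. Over the 27 exact copies near X summits, the base just before the core was C in 16 and the base just after it was A in 18. The base 2 before the core was T in 16. Farther out, the most frequent base at a position was found in only 8 to 13 of the 27. No background of base composition or of copies elsewhere was set beside these counts. The positions of mapped recruitment sites were not used here, so whether these peaks coincide with them was not tested. A match is a description of the letters and does not show what protein is bound there.

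The highest X peak lay between genes, 1786 bp upstream of F20B6.9, from 4209061 to 4209404 (all positions are on ce11). Its signal was 1720, which placed it 18th in the pooled list, and it ranked 23rd in replicate 1 and 18th in replicate 2. The centre of its motif copy lay 1.5 bp from the summit at 4209271. Signal is the authors' own height of each peak, on a scale that is not given in the sources used here, and is compared only within a list. The second peak, 741 bp upstream of nspc-17, a member of a nematode-specific peptide family, had a signal of 1323 and ranked 71st and 21st in replicates 1 and 2. The next, 1392 bp downstream of the start of F55G7.5 but outside its transcript, had a signal of 1308 and ranks of 78 and 46. All 3 ranked higher in replicate 2 than in replicate 1.

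Several of these peaks lay far from any start. The fifth, with a signal of 1170, lay 6049 bp upstream of K02D3.1, the nearest start. The sixth, also at 1170, lay in an intron of mom-1, the worm Porcupine gene needed to secrete Wnt proteins, and held 2 exact motif copies. The peaks near gtr-1 (signal 1160) and W02H3.3 (1108) held 2 exact copies each as well. The remaining ones, near F22H10.2, ZK899.6, fbxb-58 and within Y41G9A.17, had signals of 1178, 1034, 999 and 969. Just below the 11 came a peak inside a coding exon of pks-1, a large polyketide synthase gene, at 865, and one 628 bp upstream of the insulin-like gene ins-39, at 820. Both held 1 exact copy.

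All 11 of the strongest X peaks ranked higher in replicate 2 than in replicate 1, at a median rank of 52 against 101. Their ranks ran from 23 to 141 in replicate 1 and from 18 to 109 in replicate 2, so all were among the strongest regions of both. They were also wide, with a median width of 405 bp, against 204 bp over all 789 members. Of the 9 promoter peaks among the 25 strongest members, 7 ranked higher in replicate 1, and their median ranks were 194 in replicate 1 and 270 in replicate 2. Over all members the order was the opposite, since 185 promoter peaks ranked higher in replicate 2 and 139 in replicate 1, and away from promoters 200 ranked higher in replicate 2 and 217 in replicate 1. Over the 742 members found in both replicate lists, 51.9% ranked higher in replicate 2, against 51.0% of the autosomal peaks. With 2 replicates, which of them departs from the other cannot be told apart.

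**Figure D1:**
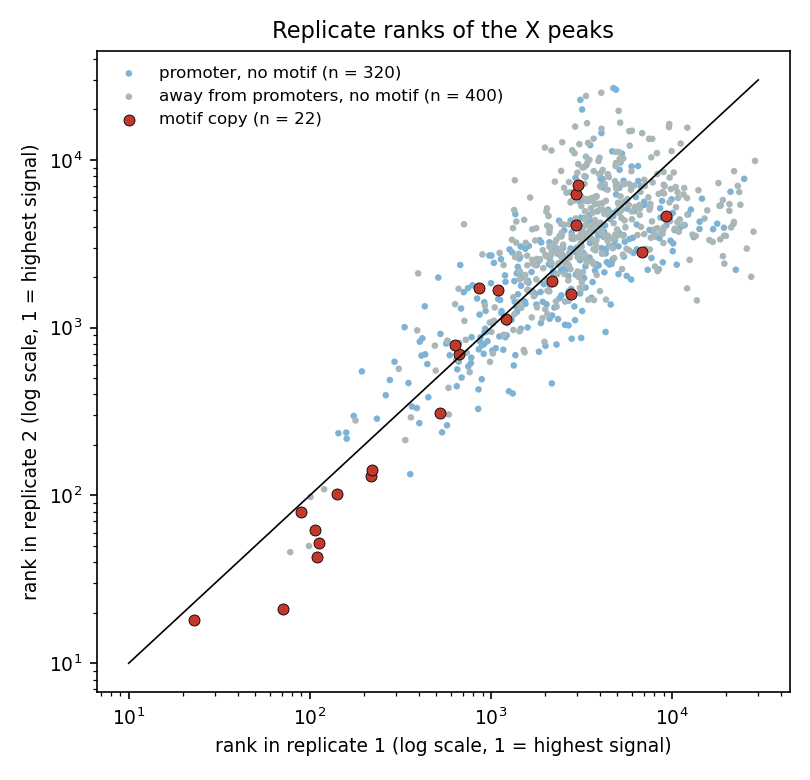
Rank by signal in replicate 1 (x axis) and replicate 2 (y axis), both on log scales with rank 1 as the highest signal, for the 742 X peaks found in both replicate lists; the line marks equal ranks. The peaks with a motif copy (red) at the lower left lie under the line, since they ranked higher in replicate 2, and most other peaks lie in the upper right.

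On the autosomes, the strongest peaks were promoter peaks. Of the 61 strongest autosomal peaks, which are the same share of their list as the 11 on X, 57 were promoter peaks (93.4%, exact Clopper-Pearson 95% interval 84.1% to 98.2%). The 0 of 11 on X follows from where that limit was set, so no interval is given for it and the pair of counts is a description. Among the 25 strongest X peaks 9 were promoter peaks (36%, 18.0% to 57.5%), against 127 of 139 on the autosomes (91.4%, 85.4% to 95.5%). Such intervals cover counting error only. No test between X and the autosomes was possible, since all samples form 1 group and X is 1 of 6 chromosomes, for which the smallest exact p is 0.167.

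The X promoters carried less of the highest signal. None of the 344 promoter peaks on X passed a signal of 1000, whereas 98 of 2448 autosomal promoter peaks did. Away from promoters, 9 of 445 peaks on X and 9 of 1936 on all autosomes together passed it. At a signal of 500, 17 of 344 X promoter peaks (4.94%) and 363 of 2448 autosomal ones (14.8%) were higher. The median signal of promoter peaks was 162 on X and 180 on the autosomes, while peaks away from promoters had nearly equal medians of 109.9 and 110.7.

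Among the X promoter peaks, the highest belonged to genes of varied function. The peak upstream of adm-4, which encodes a metalloprotease of the ADAM family, had a signal of 867 and ranked 144th in replicate 1 and 235th in replicate 2. The pdi-6 peak, with its summit 16 bp upstream of the start of this protein disulfide isomerase gene, had a signal of 762 and ranks of 175 and 298. The puf-9 peak, upstream of a gene for a Pumilio-family RNA-binding protein, had a signal of 710 and ranks of 359 and 134. Its order between the replicates was thus the reverse of the adm-4 and pdi-6 peaks. It also overlapped the non-coding transcripts W06B11.7 and W06B11.9, and the annotation cannot assign it to one of them.

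The others of the 9 were T13C5.6 and serp-1.1, both at 835, F17E5.2 at 702, sorf-1 at 651, C27C12.4 at 612 and nmat-1 at 609. The start of ucr-2.1 shares the nmat-1 window, and that of C27C12.1 the C27C12.4 window. Next in signal were apy-1, an apyrase gene, at 591, trap-2, for a subunit of the translocon-associated protein complex, at 590, and uggt-1, for the glucosyltransferase that checks glycoprotein folding, at 569. Of the 344 promoter summits, 305 (88.7%) lay upstream of the nearest start, against 82.9% on the autosomes. The median distance to the nearest start, on either side of it, was 192 bp over all 344 and 154 bp on the autosomes.

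**Figure D2:**
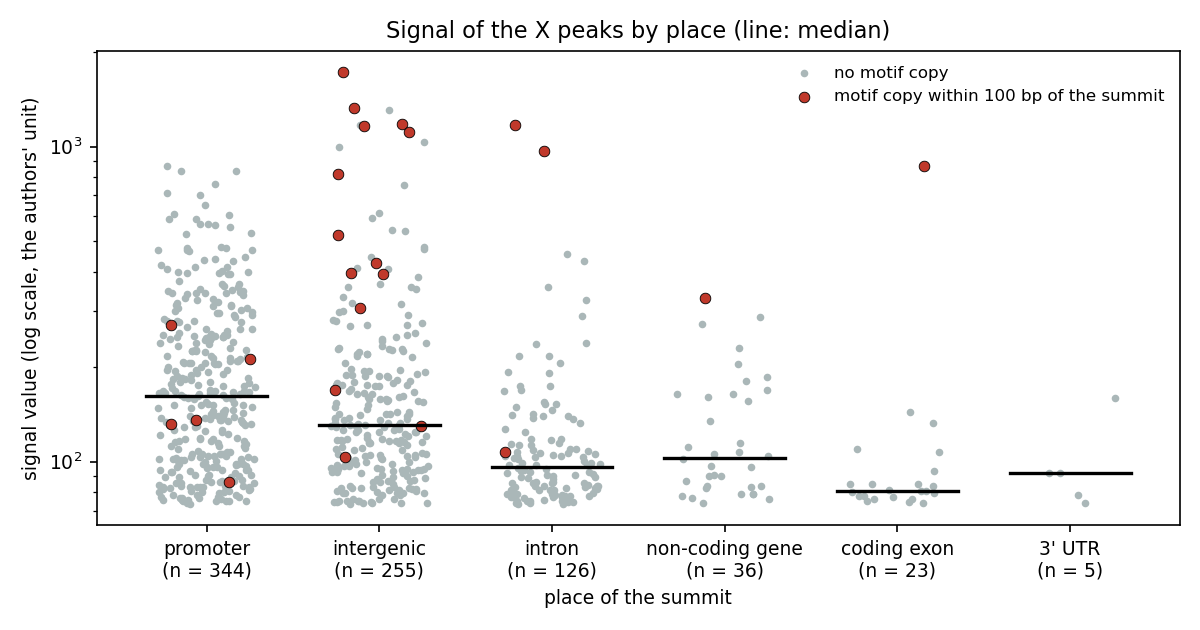
Signal of each of the 789 X peaks (y axis, log scale, the authors' unit) by the place of its summit (x axis), with a line at each median; red points hold GCGCAGGG within 100 bp of the summit. The promoter peaks have the highest median, 162, but the 11 highest points are intergenic or intronic, and 7 of those are red.

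Over all 789 members, 24 had GCGCAGGG within 100 bp of the summit (3.04%, 1.96% to 4.49%), against 12 of 4384 autosomal peaks (0.274%, 0.142% to 0.478%). Tiled windows of the same length held it in 0.0851% of cases on X and 0.0553% on the autosomes. Counted from the motif, X had 81 copies, 4.57 per Mb, and 27 of them (33.3%) lay within 100 bp of a member's summit. The autosomes had 233 copies, 2.82 per Mb, with 12 (5.15%) so placed, of which 7 were among the 46 copies of chromosome III. Most X copies thus lay farther than 100 bp from a member's summit. Within 100 bp of any summit of the unthresholded pooled list lay 35 of the 81 X copies (43.2%) and 26 of the 233 autosomal ones (11.2%). With 1 mismatch allowed, 14.4% of X summits and 8.90% of autosomal ones had a copy, against 2.60% and 2.63% of tiled windows, so the relaxed match is frequent near summits on the autosomes too.

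The motif went with high signal on X. The 24 members that held it had a median signal of 397, a lowest of 86.0 and a highest of 1720, against a median of 126 for the other 765. Of the 24, 19 lay away from promoters, where the median was 523 with the motif and 107.8 without. The 5 promoter peaks with a copy were not high, with a median of 135. On the autosomes the 12 peaks with a copy had a median of 133, against 137 without. Split in the same way, the 9 autosomal peaks away from promoters had a median of 134.7 with a copy and 110.5 without, and the 3 promoter peaks one of 100.96, against 180. On chromosome III the 7 peaks with a copy had a median of 203, against 138 without. Among the 25 strongest X peaks 9 held a copy, and among the 139 strongest autosomal peaks none did. Replicate ranks followed the same order, with median ranks of 637 and 790 in replicates 1 and 2 for the 24, and 3276 and 3259 for the others.

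The weaker motif holders included places near known genes. The nearest start to a summit between genes was that of dpy-23, which encodes the medium subunit of the clathrin adaptor AP2, at 6269 bp. The peak had a signal of 523 and ranks of 522 and 310. A second motif holder near F20B6.9, at 398, had its copy 28.5 bp from its summit at 4208714. Promoter peaks with a copy included those of R04E5.9, at 271, and gcc-1, at 212. The motif holders were found in each of 10 equal parts of the chromosome, with 5 in the leftmost and between 1 and 4 in each of the others.

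Another motif was frequent at X promoters as elsewhere. GAGACGCAG, searched on both strands, was found within 100 bp of 69 X summits (8.75%, 6.87% to 10.9%) and 557 autosomal ones (12.7%, 11.7% to 13.7%). It is rarer in the sequence of X as a whole, at 0.348% of tiled windows against 0.890% on the autosomes. At promoters the shares were 10.8% on X and 11.6% on the autosomes, and away from promoters 7.19% and 14.1%. X members with it had a median signal of 191, against 124.5 without it, and autosomal peaks 150.5 against 135.0. Among promoter peaks the medians were 216 with it and 155 without on X, but 166 and 184 on the autosomes. Away from promoters they were 172 and 107.7 on X, and 134.7 and 108.1 on the autosomes. Examples from strong X promoter peaks, shown because the 9 letters (in capitals) occur on both kinds of chromosome, are printed from RefSeq on WBcel235.
F17E5.2 (chrX:12393936-12393996, minus strand): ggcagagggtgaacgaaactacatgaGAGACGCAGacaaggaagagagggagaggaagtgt
C27C12.4 (chrX:14853968-14854028, plus strand): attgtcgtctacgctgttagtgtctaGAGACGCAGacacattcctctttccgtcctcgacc

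Other motifs were compared in the same way. GAGAGAGA was found in 8.24% of X summit windows and 11.1% of autosomal ones, against 1.12% and 1.36% of tiled windows, and at promoters in 6.40% and 6.90%. GGGCGG was found in 6.46% and 10.3%, against 2.45% and 3.31% of tiled windows. The E-box CACGTG was found in 7.22% on X and 5.98% on the autosomes, with 2.64% and 3.48% of tiled windows. TGATAA, the letters bound by GATA factors, was at 19.3% on X, close to the 19.1% of tiled X windows. The median GC content of the windows was 45.3% on X, above the 41.8% to 42.3% of the 5 autosomes, although tiled windows of X had 34.8%, within the autosomal range of 33.8% to 35.8%. In promoter windows the medians were 45.8% on X and 40.3% on the autosomes.

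Over all members, promoter peaks made up a smaller share of the X peaks. There were 344 promoter peaks on X (43.6%, 40.1% to 47.1%) and 2448 on the autosomes (55.8%, 54.4% to 57.3%), and the 5 autosomes ran from 54.3% to 57.6%, all above X. Among each replicate's 5501 strongest regions, those at tRNA genes left out, the shares were 42.8% on X and 54.7% on the autosomes for replicate 1, and 45.4% and 57.2% for replicate 2. X also has fewer genes per length, with 154 protein-coding genes per Mb against 209. In the annotation, 18.8% of X bases and 24.0% of autosomal bases lie within 500 bp of a start. Divided by that base share, promoter peaks were 2.32 times as frequent as their bases on X and 2.33 times on the autosomes, where single chromosomes ran from 2.10 to 2.59. Relative to promoter bases, X thus lay between the autosomes.

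Between genes lay 255 members (32.3%, 29.1% to 35.7%) against 22.3% of autosomal peaks, and 34.5% of X bases against 24.3% of autosomal bases are intergenic, so the ratios to bases were 0.937 and 0.920. Introns held 126 members (16.0%, 13.5% to 18.7%) and 14.1% of autosomal peaks. That difference changed sign in replicate 1 and in the 2750 strongest peaks of the list, those at tRNA genes left out. Introns make up 24.8% of X bases and 26.6% of autosomal ones, and the ratios were 0.644 and 0.531. Non-coding genes held 36 members (4.56%, 3.22% to 6.26%) on 3.21% of X bases, and 2.55% of autosomal peaks on 3.95% of bases. Their ratio was 1.42 on X, above the 0.647 of the autosomes and the 0.597 to 0.822 of single ones. Away from promoters, a further 23 summits lay in coding exons, 5 in 3′ UTRs and none in a 5′ UTR. For the 5′ UTR this allows a share of up to 0.466% (exact interval). Summits in a 5′ UTR within 500 bp of a start counted as promoter peaks. The median distance to the nearest start was 728 bp on X and 367 bp on the autosomes. Over 5 kb from any start lay 46 members (5.83%) and 140 autosomal peaks (3.19%). Intronic members had the median signal of 96.4, intergenic ones 130.6.

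The density of members was 44.5 peaks per Mb, against 53.1 on the autosomes as a whole, a ratio of 0.839. In the replicates' own strongest regions the ratio was 0.829 and 0.898. The autosomes themselves ran from 35.5 per Mb on V to 75.4 on III, so X lay inside their range, above V and IV. Counted per 100 protein-coding genes, X had more peaks, 28.9 against 25.4, so the direction depends on the scale. X holds 17.7% of the genome's length and 15.3% of the peaks away from tRNA genes.

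**Figure D3:**
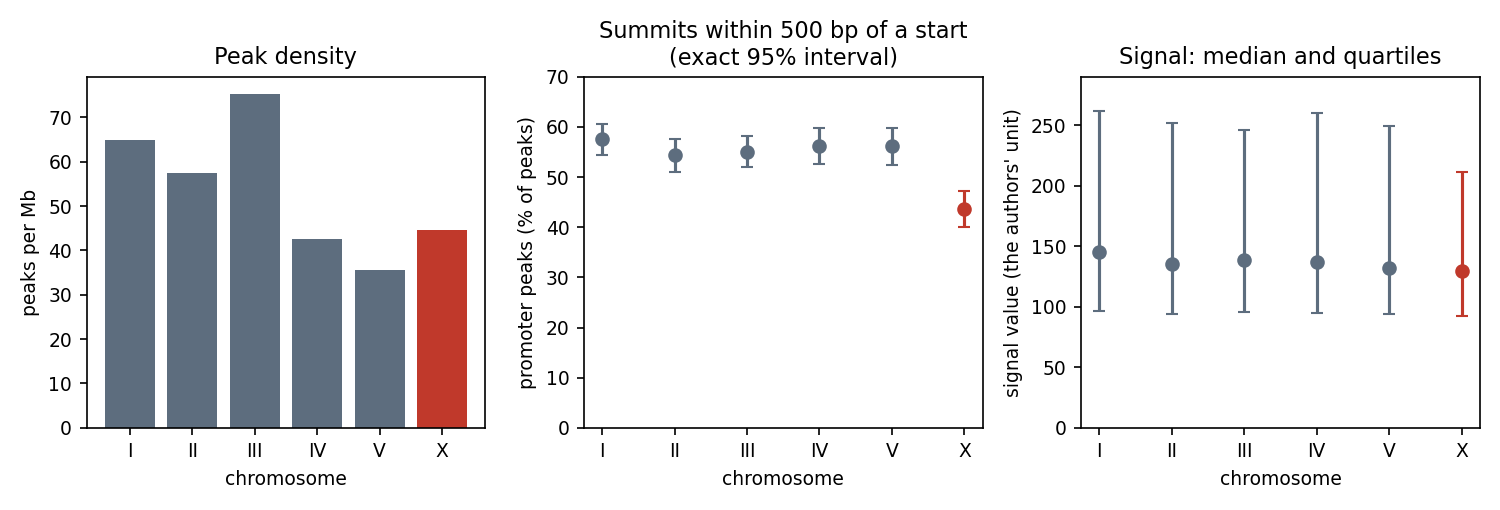
Peaks away from tRNA genes on each chromosome (x axis, X in red): peaks per Mb from 0 (left), share of promoter peaks with exact 95% intervals (centre), and median signal with lower and upper quartiles (right). The density of X, 44.5 per Mb, lies within the autosomal range, its promoter share of 43.6% lies below all autosomes, and its median signal of 129.6 is the lowest by a small margin.

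Few X peaks were among the very highest of the genome. Of the 100 pooled regions of highest signal away from tRNA genes, 8 lay on X (8%, 3.52% to 15.2%), and of the next 400, 36 did (9%, 6.38% to 12.2%). The share was 13.4% of the 500 that followed and 15.4% from rank 1001 to 2000, and reached 17.04% between 5001 and 10000. In replicate 1, 5% of the first 100 regions and 10.5% of the next 400 lay on X, and in replicate 2 the shares were 9% and 8.5%. In all members the median signal was 129.6, against 137.2 on the autosomes and 131.8 to 145.2 on single autosomes. The gap widened upward, with upper quartiles of 212 and 254 and 90th percentiles of 354 and 484. Without the 24 motif holders the X median was 126.1.

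**Figure D4:**
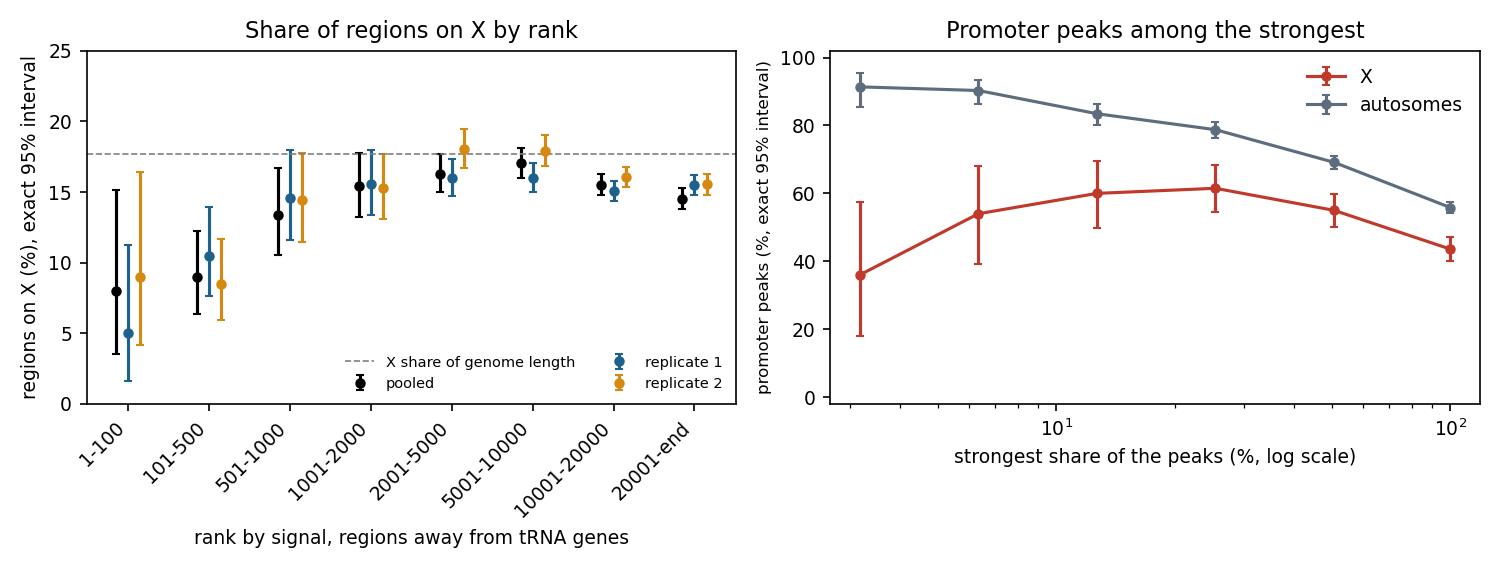
Left, share of regions on X (y axis) by rank of signal (x axis) in the pooled list and both replicate lists, with exact 95% intervals and a dashed line at the 17.7% of genome length that X makes up. Right, share of promoter peaks (y axis) among the strongest part of the thresholded peaks (x axis, log scale) for X and autosomes: the leftmost points are the 25 strongest X peaks, at 36%, and the 139 strongest autosomal ones, at 91.4%, and the rightmost are all peaks, at 43.6% and 55.8%.

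The members were found in the replicates slightly less often. Among the 5501 strongest regions of both replicates were 472 members (59.8%, 56.3% to 63.3%) and 64.2% of the autosomal peaks, with single autosomes from 60.4% to 66.2% and 63.5% over all 5173 peaks. All 5173 peaks were divided into 4 groups of equal size by signal. In the highest group the shares were 98.7% on X and 98.9% on the autosomes, in the next 92.1% and 91.5%, then 49.7% and 53.0%, and in the lowest 10.4% and 11.3%. The median rank of members was 3194.5 in replicate 1 and 3199 in replicate 2, against 2862 and 2926.5 for autosomal peaks. No region of replicate 1 overlapped 31 members (3.93%), against 3.08% of autosomal peaks and 2.14% to 4.58% on single autosomes. None of replicate 2 overlapped 17 members (2.15%), against 1.73% of autosomal peaks and 1.03% to 2.82% on single autosomes. In both, X lay inside the range of the autosomes. Across the 742 members found in both lists, the Spearman correlation of the replicates' signals was 0.689, and across 4174 autosomal peaks 0.742. These are across peaks, which share libraries and are not independent, so no p is given.

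Along X the members were spread rather evenly. Each of the 10 equal parts held between 59 and 93 of them, a ratio of 1.58, where the same ratio on the autosomes ran from 2.18 to 6.72. The 4 central parts held 36.1% of the X members, and from 45.7% to 54.8% of the peaks of each autosome. The fewest lay in the part just right of the middle and the most in the last part but one. Neighbouring summits were a median of 8186 bp apart, and 17 of 178 windows of 100 kb held none. The longest stretch with no member, of 256185 bp, ran from 8812151 to 9068336.

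**Figure D5:**
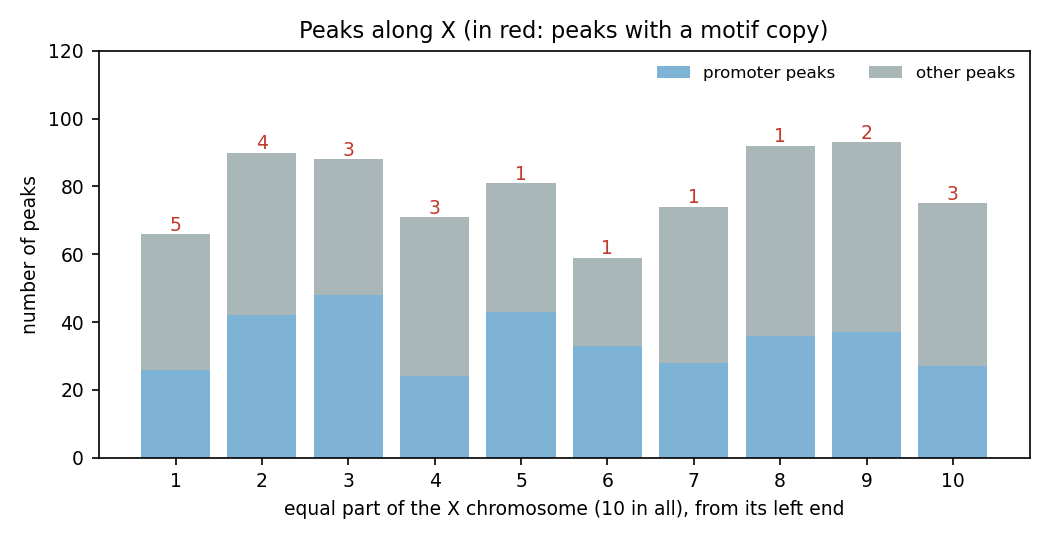
Number of X peaks (y axis) in each of 10 equal parts of the chromosome from its left end (x axis), divided into promoter peaks and other peaks, with the number of peaks that hold GCGCAGGG in red above each bar. Bars range from 59 to 93 peaks, and the red counts from 1 to 5.

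Some genes had many members counted to them by nearest transcript start, and such a member can lie outside the gene. The heterochronic gene lin-14, a transcription factor gene that sets early larval fates and is repressed by the microRNA lin-4, was nearest to 10 members, 8 of them in its introns. Their signals ran from 74.97 to 152.9, and 5 of the 10 were among the strongest regions of both replicates. The highest, at 11467443, ranked 2198th and 3106th in replicates 1 and 2. The 100 kb window that holds lin-14, from 11400001 to 11500000, had 12 members, as many as any window on X. The other window with 12, from 3100001, had a highest signal of 564, at sec-3, an exocyst gene.

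Next came mdl-1, which encodes a Mad-like basic helix-loop-helix factor, with 8 members from 74.3 to 253.3. Their summits ran from 6737855 to 6750320, whereas mdl-1 itself runs from 6742351 to 6743899, so not all lay in mdl-1. The summit 105 bp upstream of its start was the highest and ranked 1353rd and 1430th. The gene sma-9, the Schnurri homologue of the TGF-beta pathway that sets body size, had 7 members from 74.5 to 167.5, none at its promoter. The Max-like gene mxl-3 and kin-20, a casein kinase gene, had 5 each, as had unk-1, scd-1, F49E2.5 and W05H9.4. In all, 551 X genes were nearest to some member, and 403 of them to 1 only. Of the 551, 21 were nearest to 4 or more, as were 93 of the 3277 autosomal genes nearest to some peak. In the 5 strongest intronic members, behind those in mom-1 and Y41G9A.17, were peaks in inso-1, at 457, in pdk-1, a kinase of insulin signalling, at 432, and in ldb-1, a LIM-domain-binding gene, at 360. The ldb-1 peak ranked 397th in replicate 1 and 2109th in replicate 2.

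Of the 2731 protein-coding genes of X, 350 had a start with a summit at most 500 bp away (12.8%, 11.6% to 14.1%), and are called promoter-bound below. Over all chromosomes the background was 16.2%, and on the autosomes 16.7%, from 10.03% on V to 26.02% on III. The lists that follow were chosen with earlier results of these data known, and their counts are descriptions read beside these shares.

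Among genes of dosage compensation and sex determination, 4 of the 7 X-linked members were promoter-bound, and 5 of 13 autosomal ones. The peak of tra-4, which encodes a zinc-finger protein that promotes hermaphrodite fate, had a signal of 467 and ranks of 405 and 826. The peak of sdc-2, the gene that triggers loading of the dosage compensation complex on X, had a signal of 393 and ranks of 777 and 616. The peaks of ceh-39, an X-linked signal element, and sdc-1, a zinc-finger partner of sdc-2, were lower, at 178 and 169. The ceh-39 peak ranked 1366th and 4759th, and no region of replicate 1 overlapped the sdc-1 peak, which ranked 2010th in replicate 2. The other X signal elements, fox-1 and sex-1, and their target xol-1 were not promoter-bound.

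Of the 7 X-linked genes on the list of heterochronic genes, 3 had a summit, and 5 of 12 autosomal ones, where a microRNA gene counts by a summit within it or within 500 bp. The alg-1 promoter, of a microRNA Argonaute gene, had a signal of 140 and ranks of 2505 and 2992. The lin-14 promoter had 126, with ranks of 3701 and 3781. Within the annotated let-7 gene, the source of the let-7 microRNA, lay a summit of 77.9, near the lower limit of the list, which ranked 6663rd and 5129th. All 3 were thus of low or middle rank in both replicates. The genes daf-12, a nuclear hormone receptor, hbl-1, the worm Hunchback, and ain-1, a GW182-type partner of Argonautes, were not promoter-bound. They were nevertheless nearest to 3, 2 and 1 members, of which the highest was a peak of 317 that lay 1014 bp upstream of ain-1 and ranked 1007th and 945th.

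Lists of basic cell function included several bound X-linked genes. All 3 X-linked vacuolar ATPase genes were promoter-bound, and 10 of 17 autosomal ones. They were vha-12, for a catalytic-sector subunit of this proton pump, at 468, vha-15 at 354, and vha-20 at 76.6. The vha-12 peak ranked 334th in replicate 1 and 1008th in replicate 2. Of 2 ribosomal protein genes on X, rpl-11.2 was bound, at 567, and of 76 on the autosomes 67 were. The small GTPase genes rab-14, at 200, and rab-6.2, at 133, were bound, 2 of 3, and 5 of 26 on the autosomes. Of 5 chaperone genes 2 were bound, dnj-14 at 437, in a window shared with the start of glit-1, and hsp-3, for an endoplasmic reticulum chaperone of the BiP type, at 216. On the autosomes 29 of 54 were.

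Nuclear hormone receptor genes were bound in 6 of 23 cases on X (26.1%) and 33 of 246 on the autosomes (13.4%). The highest were nhr-32 and nhr-1, both at 209, then nhr-35 at 114 and nhr-71 at 109.6. The nhr-32 peak ranked 4304th in replicate 1 and 943rd in replicate 2, whereas that of nhr-1 ranked 1607th and 1680th. Neuropeptide and insulin genes were bound in 0 of 34 cases on X and 2 of 106 on the autosomes. Ion channel genes were bound in 1 of 39 cases on X and 2 of 106 on the autosomes. The 1 on X was glr-6, a glutamate receptor gene, with a peak of 409, whose window also holds the start of asg-2. Homeobox genes were bound in 1 of 23 cases on X, the ceh-39 gene named above, and 2 of 56 on the autosomes. None of 27 collagen, 33 chemoreceptor, 7 cytochrome P450, 6 innexin, 3 C-type lectin and 3 glutathione transferase genes was bound on X. On the autosomes these families had 7 of 129, 6 of 1275, 2 of 67, 1 of 17, 5 of 237 and 4 of 41. Of 4 UDP-glucuronosyltransferase genes on X, ugt-50 was bound, at 149, and 1 of 63 on the autosomes.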

How the data were processed

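Regions came from chromatin immunoprecipitation with sequencing in 2 samples of 1 group. The authors' deposited narrowPeak lists hold a signal value per region (scale not given in the sources used here), a −log10 q-value and a summit offset. Per the submitters' file lists, the regions were called against a control alignment, for each replicate, for pooled alignments, and thresholded by irreproducible discovery rate. The aligner, the caller and the threshold are not stated in the labels or files. Of 8 lists, 5 were used. The unthresholded ones hold 30000 regions each. The table columns of other series numbered 0.

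Summits were placed against Ensembl 115 genes of WBcel235, whose chromosome lengths fit ce11, in the order promoter (at most 500 bp from the start of a protein-coding transcript), untranslated or coding exon, intron, non-coding gene and intergenic. A member's replicate rank is that of the strongest region overlapping it by at least 1 bp, and the strongest regions of a replicate are its first 5501 by signal. Motifs were searched on both strands within 100 bp of the summit and in tiled windows of that length. Shares have exact Clopper-Pearson 95% intervals. No test was made, because there is 1 group. Placement and motif search were tested on simulated data. Tools were Python 3.11.15, pandas 2.3.3, numpy 2.4.6 and scipy 1.17.1.

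Genes named are those of the 25 strongest members, of the 5 strongest intronic and intergenic ones, and up to 4 bound members of each of 17 lists. The genes with most members, the motif holders, the next 3 promoter peaks, unbound list members and the non-coding genes were named after their values were seen. The members and the lists were chosen with earlier results of these data known.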

Additional observations from a re-analysis of the deposited data

How the results depend on the processing

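No paired analysis was possible because all samples belong to 1 group. Of 78 alternatives over 10 results, of which 73 were planned, 34 stayed within the spread of the reported value, which is the SD of the replicates' own lists or, for the share in both replicates, the half-width of its exact interval, 40 left it in the same direction and 4 reversed. That SD rests on 2 values, and the replicates' own lists are also among the alternatives, so these counts do not measure robustness. For the promoter share the SD was only 0.119 percentage points. Values below are X over autosomes for density and median signal, and X minus autosomes in percentage points for shares. In the replicates' own lists, density ran from 0.829 to 0.898, the promoter share from -11.94 to -11.77, the intergenic share from 11.35 to 13.5, the intronic share from -1.72 to 0.972, median signal from 0.902 to 0.921, promoter-bound genes from -3.74 to -3.255, GC content from 2.985 to 3.483, the motif from 2.73 to 2.75, and the X share of all peaks from 15.1% to 16.2%. In the 2750 strongest peaks, with those at tRNA genes then left out, these were 0.764, -13.83, 15.03, -1.83, 0.879, -3.53, 4.975, 4.87 and 14.1%. The share in both replicates differed there by -0.262. The relaxed list held 17622 regions with −log10 q of at least 2, from which those at tRNA genes were then left out. In it the promoter share was -7.32, the intergenic share 7.03, median signal 1.01 and promoter-bound genes -3.11. With peaks at tRNA genes kept, density was 0.949, the promoter share -15.76, the intergenic share 8.19, median signal 0.992, promoter-bound genes -3.52 and the X share 16.9%. The ce10 list with those peaks gave a density of 0.9499 and a signal of 0.989, on WBcel235 lengths. A tRNA distance of 1000 bp gave a promoter share of -12.08, and promoter windows of 250 and 1000 bp gave -13.73 and -11.37, with promoter-bound genes at -4.62 for the wider one. With 200 bp on each side of the summit the motif was at 2.83 and GC content at 2.49. Added after seeing the data were density per 100 protein-coding genes, at 1.14, median signal without the motif holders, at 0.919, the motif in the whole peak at 2.69 and with 1 mismatch at 5.55. The 4 reversals were density per gene, the intronic share in replicate 1 and in the strongest peaks, and median signal in the relaxed list. Density per gene reversed since X has fewer genes per length. The cause of the others was not tested. The lists give no depth, so no limit of detection can be given.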

Other observations

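Non-coding genes on X differed in how often a summit lay within them or within 500 bp. Of 38 lincRNA genes 12 had one (31.6%), and 32 of 156 on the autosomes (20.5%), but the highest, at linc-78, was the peak of 567 shared with the rpl-11.2 promoter. Of 74 microRNA genes 14 had one (18.9%), and 39 of 187 on the autosomes (20.9%). The highest was a summit of 290 at 13145416 beside mir-54 and mir-55, which ranked 1442nd and 951st in replicates 1 and 2. A lower peak of 137, at 13144452, lay beside the neighbouring mir-56 and also within 500 bp of mir-55. The microRNA genes mir-75 and mir-239a had peaks of 177 and 158. Of 33 small nucleolar RNA genes 5 had one (15.2%), against 126 of 313 on the autosomes (40.3%). Of 3 small nuclear RNA genes none did, against 36 of 126. The class annotated only as ncRNA had 202 of 2520 (8.02%) on X and 700 of 5244 (13.3%) on the autosomes. Of piRNA genes, 10 of 162 (6.17%) on X and 86 of 15201 (0.566%) on the autosomes had one, of pseudogenes 4 of 178 and 81 of 1950, and of antisense RNA genes 0 of 7 and 14 of 93. Neighbouring non-coding genes can share a peak, so these counts are not of separate peaks. They were not split by single autosome, so the genes of a single autosome can dominate an autosomal share, as for the piRNA genes.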
